A study of Canis lupus familiaris with 30 samples.

Results

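The 10 genes of a published MAPK pathway activity score (*PHLDA1*, *SPRY2*, *SPRY4*, *DUSP4*, *DUSP6*, *CCND1*, *EPHA2*, *EPHA4*, *ETV4* and *ETV5*) were followed one at a time in 30 canine thyroid carcinomas. They were chosen by symbol, as the rows of the raw count table that carry these names, and are 10 of the 30424 genes counted. Tumor RNA came from separate client-owned dogs with naturally occurring disease. There were 25 follicular cell thyroid carcinomas (FTC) and 5 medullary thyroid carcinomas (MTC), which arise from the calcitonin-producing C cells of the gland. Ages, breeds and treatments are not in the sample labels, and no experimental agent was given.

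Within FTC, 9 tumors were named by the study as carrying a variant in a gene of the MAPK pathway and are called carriers here. TC1218 carried an *ARAF* variant and TC22 an *NF1* variant. *ERBB2* variants were named in TC1744 and TC2011, a *TNFRSF1A* variant in TC1123, variants of calcium channel subunit genes in TC67 and TC1979, and an *FGFR2* fusion in TC1088. The last carrier was TC1241. The other 16 FTC had none named, which is the sense of "others" below. One MTC, TC1601, was a carrier as well, with an *NF1* variant, and the other 4 MTC had none named. The carriers are therefore a mixed group, defined by calls from exome or RNA reads, and TC1601, TC1994 and TC2289 had RNA reads only. The labels name each library but not its group, which was matched by library name from the study.

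Signals from growth factor receptors pass through RAS, RAF and MEK to the kinases ERK1 and ERK2, which enter the nucleus and switch on a set of early and delayed response genes. Several of these genes encode brakes on the same cascade, so that their transcripts are widely used as a readout of its activity. In thyroid cancer the cascade is a frequent target of mutation. Among the 10 score genes, *SPRY2* and *SPRY4* encode Sprouty proteins, which dampen receptor signaling to RAS, and *DUSP4* and *DUSP6* encode phosphatases that remove activating phosphates from MAP kinases. *ETV4* and *ETV5* encode ETS family transcription factors of the PEA3 group. *CCND1* encodes cyclin D1, which drives cells into the cell cycle, *PHLDA1* a pleckstrin homology-like domain protein, and *EPHA2* and *EPHA4* receptor tyrosine kinases for ephrins.

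The tumors had 12288945 to 45148677 counts each, and the lowest count of a score gene was 1, for *PHLDA1* in TC538, below the floor of 3 counts. TC538 had the smallest size factor, 0.279, against up to 1.62 elsewhere. Depth differed with the grouping of FTC: size factors were 0.995 to 1.62 in carriers and 0.279 to 1.41 in others. The median total was 27971609 counts in carriers and 24128421 in others. A normalized count is the count divided by the tumor's size factor, and a level is its log2 after adding 1. TC1088 went against its grouping by the study as a follicular cell tumor: it had 12 counts of *TG* (thyroglobulin), 1 count of *TSHR* and a *PAX8* level of 6.87. The 5 MTC had summed C cell marker levels of 17.84 to 19.43, against at most 13.14 in FTC, although TC2289 had only 95 counts of the calcitonin gene *CALCA*. In these bulk samples, fewer cells of a type and less RNA per cell cannot be told apart.

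**Figure D1:**
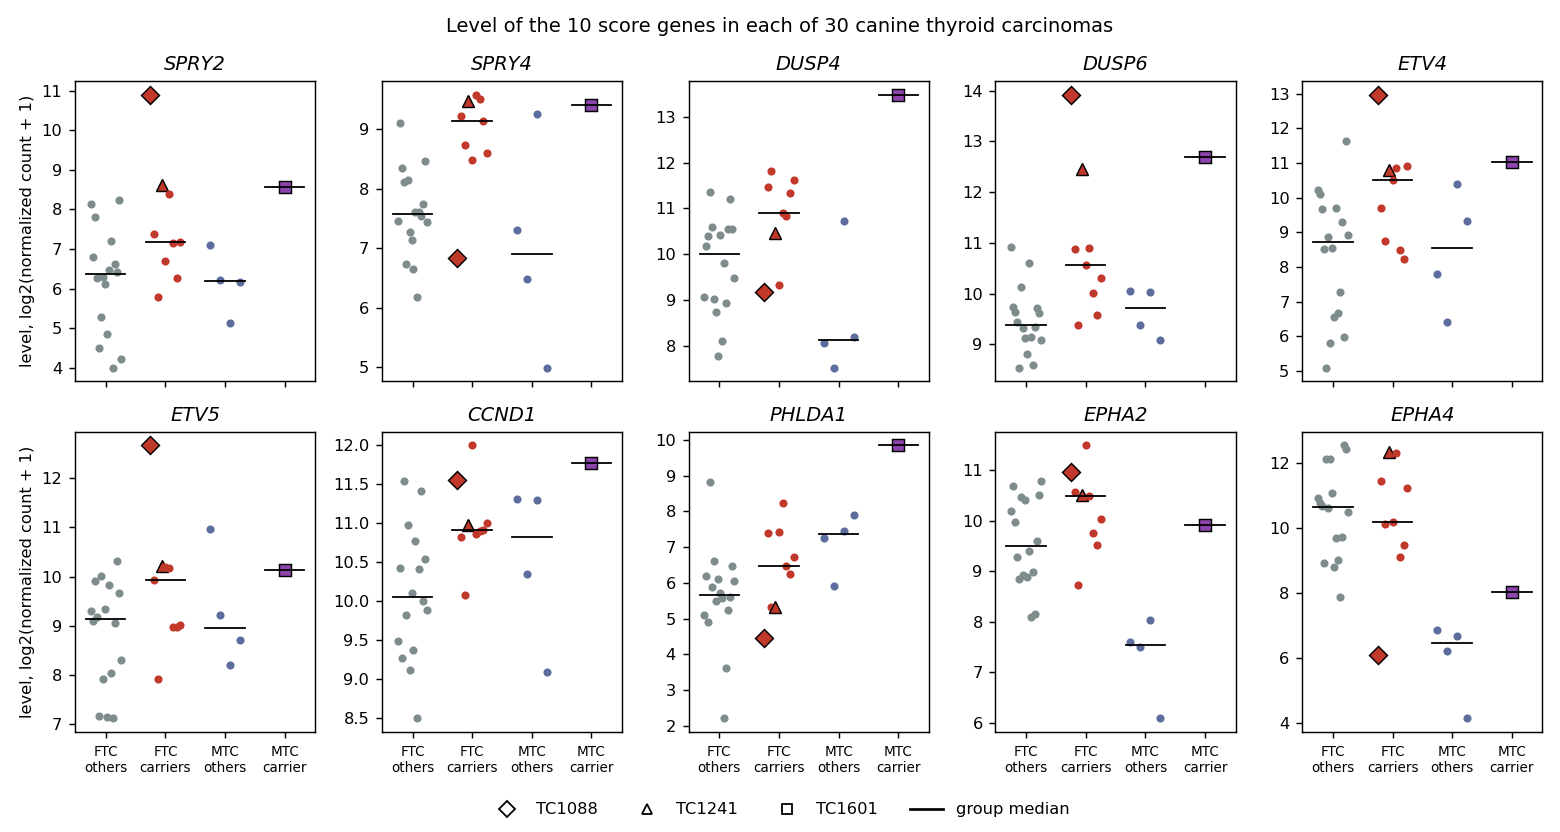
Level of each score gene, as log2(normalized count + 1), in every tumor, by group (16 FTC others, 9 FTC carriers, 4 MTC others and 1 MTC carrier). Points are tumors, lines are group medians, and vertical scales differ between genes. TC1088 (diamond) was the highest FTC in *SPRY2*, *DUSP6*, *ETV4* and *ETV5* and the lowest in *EPHA4*, while TC1601 (square) was the highest MTC in 9 of the 10 genes.

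Whether FTC with a named MAPK pathway variant express more of each score gene was asked first. *DUSP6*, the ERK-directed phosphatase, was 4.3-fold higher in the 9 carriers than in the 16 others and was the only score gene to pass the test over all genes. *SPRY4* came next, 2.35-fold higher without passing, and separated the carriers other than TC1088 from most others with little spread. *SPRY2*, *ETV4* and *ETV5* also had large fold changes. Theirs and that of *DUSP6* rested to a great extent on TC1088, without which the log2 fold change of *DUSP6* fell from 2.10 to 1.20. *EPHA4* did not differ detectably between the groups. In all, 9 of the 10 genes had a positive log2 fold change, with a median of 1.08, beside a median of -0.01 over all 18106 genes tested, of which 49.3% were positive. Of the 10, 1 (*DUSP6*) passed at an adjusted p below 0.05, where 0.21% of all genes tested passed (38 genes, each higher in carriers). At an unadjusted p below 0.05, 7 of the 10 were reached, all in the direction of higher values in carriers, against 6.99% of all genes in that direction. *DUSP6* also passed the stricter rule that adds a log2 fold change beyond 2, which 0.199% of genes passed. Without TC1088 none of the 10 passed in edgeR, 4 (*SPRY4*, *DUSP4*, *DUSP6* and *CCND1*) had an unadjusted p below 0.05, as did 2764 of 18009 genes tested, and the median log2 fold change of the 10 was 0.72. Most pairs of the 10 genes were positively correlated across FTC, as shown further on, so that these counts are not counts of independent genes.

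Normalized counts of *DUSP6* ran from 665 to 15529 in the carriers, with a median of 1520, and from 371 to 1941 in the others, with a median of 672. The carriers TC1088 and TC1241 exceeded every other FTC, 8 of the 9 carriers were above the median of the others, and 8 of the 16 others lay below the lowest carrier. The mean level was 10.89 ± 1.45 (SD, n = 9) in carriers and 9.49 ± 0.66 (SD, n = 16) in others. The log2 fold change was 2.10 (SE 0.43), with an edgeR adjusted p = 0.0291 (9 carriers against 16 others). An exact permutation test of the levels gave a difference of 1.40 (two-sided p = 0.00131, unadjusted). The edgeR call was lost without TC1088 (log2 fold change 1.20, adjusted p = 0.179), without TC1241 (1.98, adjusted p = 0.0686) and without TC538 (2.04, adjusted p = 0.0565), within a range of 0.00192 to 0.179 over all alternatives run. On the level scale the 8 carriers without TC1088 still differed from the others by 1.03 (exact permutation p = 0.00447).

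*SPRY4* was the score gene in which most carriers stood above the others. Normalized counts were 113 to 767 in carriers (median 561) and 71.7 to 548 in others (median 189). In 5 of the 9 carriers, TC1979, TC2011, TC1241, TC1123 and TC22, the level exceeded that of every other FTC, and TC1088 was the lowest carrier at 6.83. The remaining 8 carriers lay within a narrow band of 8.48 to 9.58. *SPRY4* had a log2 fold change of 1.23 (SE 0.30), with an edgeR adjusted p = 0.0804, and in DESeq2 the adjusted p was 0.0196, the lowest of a range up to 0.199 and the single setting in which *SPRY4* passed. The difference in mean level was 1.24 (two-sided exact permutation p = 0.00117), and 1.50 without TC1088 (exact permutation p = 4.35e-05). TC1088 thus lowered the *SPRY4* difference and raised that of *DUSP6*.

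*SPRY2*, the relative of *SPRY4*, showed the reverse placing of TC1088. Normalized counts were 54.2 to 1907 in carriers (median 145) and 15 to 304 in others (median 81.1). TC1088 held the top value, followed by TC1241 with 394 and TC1979 with 333, and these 3 carriers exceeded every other FTC. *SPRY2* had a log2 fold change of 1.85 (SE 0.56), with an edgeR adjusted p = 0.178, and it was 0.75 (SE 0.48) without TC1088. By exact permutation the difference in level was 1.39 (p = 0.0246), and 0.98 without TC1088 (p = 0.0785).

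For *DUSP4*, a nuclear phosphatase of the MAP kinases, normalized counts were 576 to 3591 in carriers (median 1912) and 219 to 2613 in others (median 1029). TC1218, TC67 and TC1123 exceeded every other FTC, and TC1088 and TC1744 were the carriers with the lowest values. TC1218, the *ARAF* carrier, was thus the highest FTC in *DUSP4* while its *DUSP6* level was the lowest among carriers. *DUSP4* had a log2 fold change of 0.93 (SE 0.38), with an edgeR adjusted p = 0.313. The difference in level was 1.01 (exact permutation p = 0.0281), and 1.21 without TC1088 (p = 0.0103).

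Both PEA3 group factors were most abundant in TC1088. *ETV4* normalized counts were 298 to 8045 in carriers (median 1465) and 33.1 to 3194 in others (median 420), and TC1088 was the only carrier above every other FTC. TC815, with no variant named, had the second highest *ETV4* of all FTC. For *ETV4* the log2 fold change was 1.61 (SE 0.64, edgeR adjusted p = 0.3005), and 0.82 (SE 0.61) without TC1088. For *ETV5* the counts were 239 to 6497 in carriers (median 976) and 137 to 1273 in others (median 563). The *ETV5* log2 fold change was 1.33 (SE 0.46, edgeR adjusted p = 0.246), and 0.43 (SE 0.38) without TC1088. Without that tumor, the exact permutation p was 0.0544 for *ETV4* and 0.191 for *ETV5*, against 0.0202 and 0.0643 with it.

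Cyclin D1 was the one score gene in which all 9 carriers lay above the median of the others. Its normalized counts were 1082 to 4104 in carriers (median 1939) and 362 to 2985 in others (median 1069), and 8 of the 16 others lay below the lowest carrier. The groups overlapped, with TC1744 and TC1088 above every other FTC. The *CCND1* log2 fold change was 0.75 (SE 0.30, edgeR adjusted p = 0.308) and moved little without TC1088, to 0.67 (SE 0.31). The difference in level was 0.91 (exact permutation p = 0.00821).

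*PHLDA1* normalized counts were 20.9 to 303 in carriers (median 88.6) and 3.59 to 453 in others (median 49.5), so that both the highest and the lowest FTC were tumors with no variant named. *PHLDA1* had a log2 fold change of 0.55 (SE 0.52, edgeR adjusted p = 0.656). *EPHA2* counts were 424 to 2885 in carriers (median 1436) and 272 to 1753 in others (median 723), with TC1744 and TC1088 above every other FTC. Its log2 fold change was 0.61 (SE 0.33, edgeR adjusted p = 0.425). *EPHA4* was the exception in sign. Counts of *EPHA4* were 67.8 to 5164 in carriers (median 1147) and 235 to 5950 in others (median 1602), with TC1088 below every other FTC. Its log2 fold change of -0.03 (SE 0.56, edgeR adjusted p = 0.987) turned to 0.13 (SE 0.52) without TC1088.

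**Figure D2:**
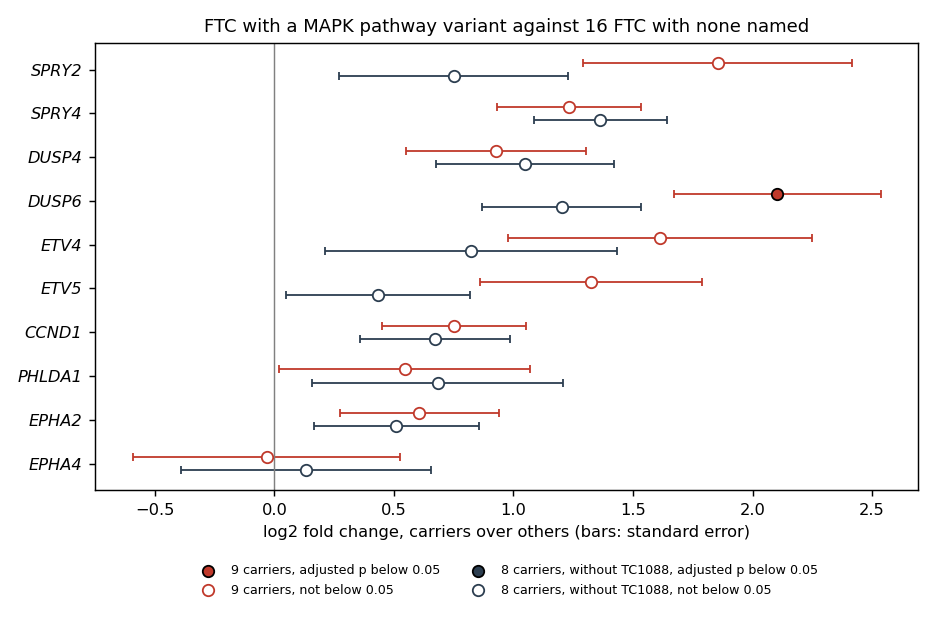
Log2 fold change of each score gene between FTC carriers and the 16 other FTC (points) with its standard error (bars), from edgeR, for all 9 carriers (red) and for the 8 carriers without TC1088 (dark). Filled points have an adjusted p below 0.05. *DUSP6* at 2.10 is the only filled point, and *SPRY2*, *DUSP6*, *ETV4* and *ETV5* shift toward 0 without TC1088 while *SPRY4* and *DUSP4* do not.

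Endothelial markers moved with the same grouping. All 6 of them (*PECAM1*, *VWF*, *CDH5*, *KDR*, *TEK* and *ROBO4*) had a positive log2 fold change, with a median of 0.89, and 5 had an unadjusted p below 0.05, as did 13.3% of all genes tested, although none passed in edgeR or DESeq2. Their summed level was 12.28 to 14.88 in carriers (median 14.62) and 12.07 to 14.55 in others (median 13.23). Without TC1088 the endothelial markers had a median log2 fold change of 1.03 and a summed level of 13.3 to 14.88 in carriers. All 6 then had an unadjusted p below 0.05, as did 2764 of 18009 genes tested, and none passed in edgeR. Their part in the differences of the score genes was not tested. Of 6 C cell markers, 4 were tested and all 4 had a positive log2 fold change in edgeR, with a median of 1.47 and 2 at an unadjusted p below 0.05. In DESeq2 their median was 0.02 with 0 at an unadjusted p below 0.05, and none passed in either tool. Their summed level was 5.86 to 13.14 in carriers (median 8.63) and 5.42 to 11.95 in others (median 8.38), and their part was not tested either. Follicular cell markers had a median log2 fold change of 0.10, positive in 3 of 6, with none of 6 at an unadjusted p below 0.05 in edgeR, 1 in DESeq2 and none past the test in either. Their summed level was 7.56 to 20.27 in carriers (median 18.33) and 14.9 to 22.75 in others (median 19.6). Without TC1088 it was 15.59 to 20.27 in carriers (median 18.81). The part of these markers was not tested.

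Other genes tied to the pathway were read in the same fit, in which 13.3% of all genes tested had an unadjusted p below 0.05 in either direction. Of 28 further ERK response genes, 25 were tested, 20 had a positive log2 fold change (median 0.38), 8 had an unadjusted p below 0.05 and none passed in edgeR or DESeq2. Of these 8, all but *MCL1* (log2 fold change -0.52) were higher in carriers. *DUSP5*, another phosphatase of this family, had a log2 fold change of 1.37 (SE 0.40, edgeR adjusted p = 0.164), chosen for mention after its value was seen. Of 24 relatives of the score genes tested, 17 were positive, 5 had an unadjusted p below 0.05, all higher in carriers, and none passed in either tool. *SPRY1*, a further Sprouty gene, also named after its value was seen, had a log2 fold change of 1.73 (SE 0.43, edgeR adjusted p = 0.0862). None of the 5 ephrin ligands tested passed in edgeR, where 1 had an unadjusted p below 0.05, and 1 (*EFNB2*) passed in DESeq2. The 11 cascade genes from RAF to ERK had a median of -0.22, with 1 (*MAP3K8*, -0.66) at an unadjusted p below 0.05 and none past the test in either tool. Of *NF1*, *ERBB2*, *TNFRSF1A* and *FGFR2*, which were altered in carriers, 0 of 4 had an unadjusted p below 0.05 in edgeR or DESeq2, with a median of -0.04.

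Carriers differed from each other in which score genes were high. Set against the median of the 16 others, TC1123 (*TNFRSF1A*) and TC1979 (calcium channel subunit) were above it in all 10 genes. TC1241 and TC67 (calcium channel subunit) were above it in 9, TC1744 (*ERBB2*) in 8, TC2011 (*ERBB2*) in 7, TC22 (*NF1*) and TC1088 (*FGFR2* fusion) in 6 and TC1218 (*ARAF*) in 4. High counts of this kind were not limited to carriers, since among the tumors with no variant named TC815 was above the median in all 10 genes and TC1213 in 9.

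TC1088 had the widest profile. Its difference from the median of the others was 4.54 in *SPRY2*, 4.53 in *DUSP6*, 4.26 in *ETV4* and 3.53 in *ETV5*, but -0.74 in *SPRY4*, -0.82 in *DUSP4*, -1.20 in *PHLDA1* and -4.54 in *EPHA4*. Its *FGFR2* level, 12.14, was the second highest of the 30 tumors. TC1241 was next in *DUSP6* with a difference of 3.07 and was also 2.27 above the median in *SPRY2*, 2.09 in *ETV4* and 1.90 in *SPRY4*. The *ARAF* carrier TC1218 was 1.81 above the median in *DUSP4* and 1.16 in *SPRY4*, while its *ETV5* difference was -1.23. TC22, with the *NF1* variant, had a similar pair, 1.34 in *DUSP4* and 1.57 in *SPRY4*, with 0.17 in *DUSP6*. The 2 *ERBB2* carriers were unlike: TC1744 reached 2.00 in *EPHA2* and 1.94 in *CCND1* with -0.67 in *DUSP4*, and TC2011 reached 1.93 in *SPRY4* with 0.25 in *EPHA2* and -1.53 in *EPHA4*. Each altered gene named here was seen in only 1 or 2 FTC, so these profiles have no replicate check.

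**Figure D3:**
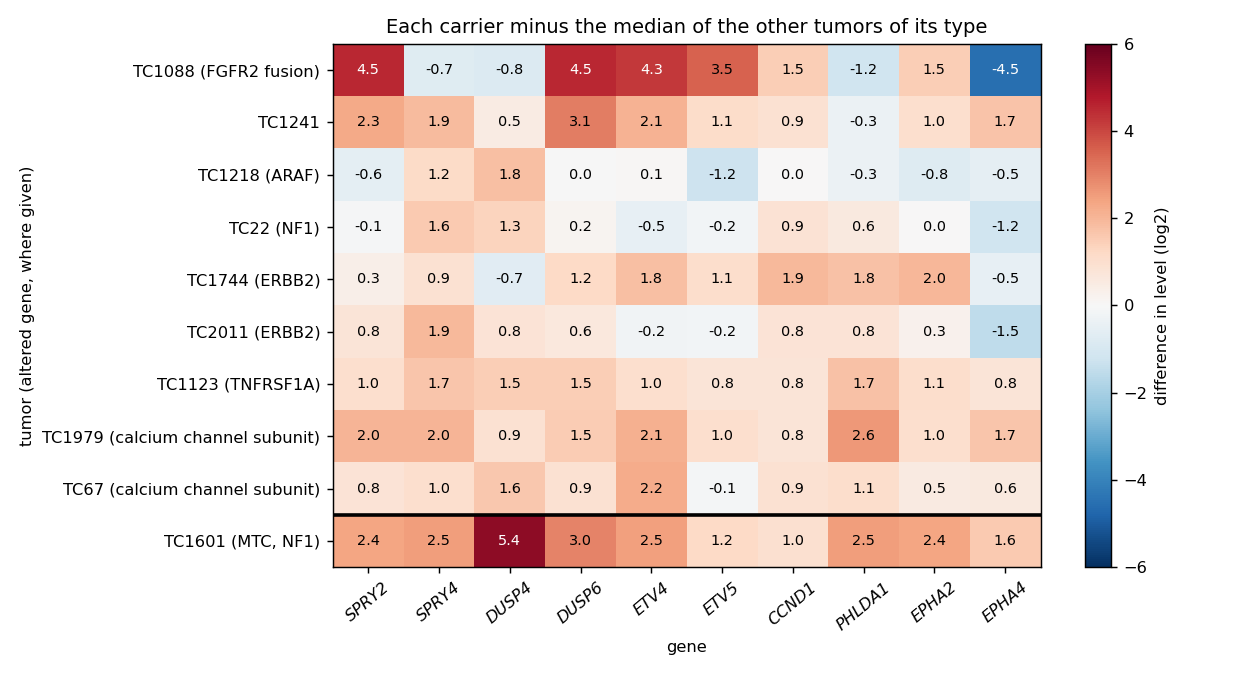
Level of each score gene (columns) in each carrier (rows) minus the median of the tumors of the same type with no variant named (16 FTC, or 4 MTC for TC1601), in log2 units written in each cell, red for higher and blue for lower. TC1088 spans 4.54 in *SPRY2* to -4.54 in *EPHA4*, *SPRY4* is above the median in 8 of the 9 FTC carriers, and TC1601 is above it in all 10 genes with 5.36 in *DUSP4*.

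The tumor types were compared next, with 24 FTC (TC1088 left out) and 5 MTC. The study left TC1088 out of its own differential expression tests as an outlier that had lost *NKX2-1*. It was kept in the carrier comparison above, where results without it are given as well. *EPHA4*, an ephrin receptor, was 19.8-fold higher in FTC, and *EPHA2* was 3.11-fold higher. *PHLDA1* was 3.37-fold higher in MTC, a call that was lost without TC1601. The other 4 MTC had a median *PHLDA1* level of 7.36, against 5.96 in the 24 FTC. The other 7 score genes did not pass. The share of score genes called was near that over all genes: 2 of 10 were higher in FTC, beside 8.18% of the 18622 genes tested, and 1 of 10 was higher in MTC, beside 13.7%. In either direction this was 3 of 10 beside 21.9%, and with the added limit on the log2 fold change it was 1 of 10 (*EPHA4*) beside 11.8%. In no score gene did every FTC lie above every MTC, which was so for 0.757% of the genes tested. The median log2 fold change of the 10 genes was -0.28, beside 0.00 over all genes.

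*EPHA4* normalized counts were 235 to 5950 in the 24 FTC, with a median of 1602. In MTC they were 16.7 in TC2289, 73.7 in TC1473, 102 in TC1936, 114 in TC1020 and 258 in TC1601. Of the 24 FTC, 23 lay above the highest MTC, and the exception was TC627. The log2 fold change was 4.31 (SE 0.82, edgeR adjusted p = 0.000184), and the call held in each of 12 alternatives (adjusted p from 6.67e-12 to 0.00124). The difference in level was 4.20, with a two-sided exact permutation p = 1.68e-05 over 118755 splits. TC1088, left out here, had 67.8 normalized counts of *EPHA4*, within the range of the MTC.

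*EPHA2* counts were 272 to 2885 in FTC (median 930). The 4 MTC with no variant named had 66.6, 179, 193 and 261, all below the lowest FTC, and TC1601 had 959. *EPHA2* had a log2 fold change of 1.64 (SE 0.53, edgeR adjusted p = 0.0248). The call was lost when any 1 of those 4 MTC was left out (adjusted p from 0.0597 to 0.0806, within a range of 0.00113 to 0.0806 over all alternatives), and the log2 fold change was 2.58 (SE 0.57, adjusted p = 0.00113) without TC1601. In the exact permutation test the levels differed by 1.93 (p = 0.00069).

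*PHLDA1* counts were 3.59 to 453 in FTC (median 61.4), and in MTC 59.1 in TC1473, 152 in TC1020, 176 in TC1936, 238 in TC2289 and 919 in TC1601. TC1601 exceeded every FTC, and the other 4 MTC lay within the range of FTC. *PHLDA1* had a log2 fold change of -1.75 (SE 0.57, edgeR adjusted p = 0.0253), with an exact permutation p of 0.0178 for the levels. Without TC1601 it was -0.75 (SE 0.63, adjusted p = 0.435), and with tumors with no variant named only, -1.06 (adjusted p = 0.302), the alternatives spanning 0.0149 to 0.435.

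The log2 fold changes of both phosphatases turned sign when TC1601 was left out. That of *DUSP4* was -0.93 (SE 0.61) with TC1601 and 1.27 (SE 0.65) without it, and that of *DUSP6* was -0.80 (SE 0.50) with it and 0.48 (SE 0.52) without it, none past the test. With tumors with no variant named only, *DUSP6* was at -0.06 (SE 0.37) and *DUSP4* at 0.82 (SE 0.62). For *DUSP4* the difference in mean level, 0.57, was already positive with TC1601 included (exact permutation p = 0.423). *SPRY2* and *SPRY4* had log2 fold changes of -0.11 (SE 0.59) and 0.11 (SE 0.53), and *SPRY4* was positive both with and without TC1601 but ran from -0.19 to -0.07 when TC1020, TC1473 or TC2289 was left out. *ETV4* was at -0.15 (SE 0.74), *ETV5* at -0.44 (SE 0.45) and *CCND1* at -0.40 (SE 0.40), with edgeR adjusted p of 0.913, 0.547 and 0.525.

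**Figure D4:**
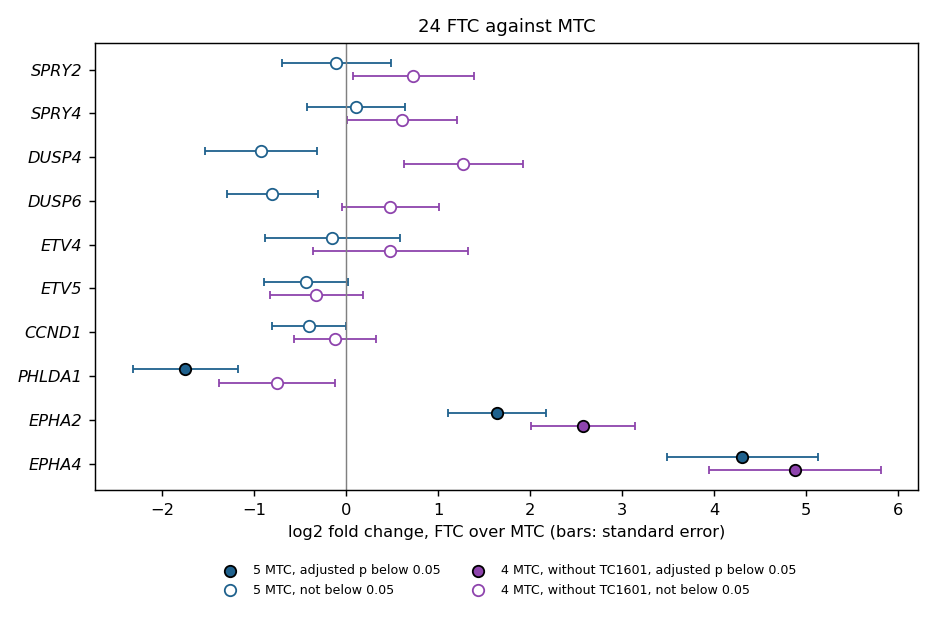
Log2 fold change of each score gene between 24 FTC and MTC (points, positive where FTC were higher) with its standard error (bars), from edgeR, with all 5 MTC (blue) and with the 4 MTC other than TC1601 (purple). Filled points have an adjusted p below 0.05. *EPHA4* and *EPHA2* are filled in both, *PHLDA1* at -1.75 only with TC1601, and *DUSP4* and *DUSP6* change sign without TC1601.

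TC1601, the MTC carrier, is 1 tumor set beside 4, so its values are given without a test. *DUSP4* had 11440 normalized counts in TC1601, the highest of all 30 tumors, against 183, 265, 291 and 1703 in the other MTC. For *DUSP6* the value was 6644, against 544, 672, 1045 and 1062. Both phosphatases were thus far above the other MTC. *SPRY2* had 378 counts in TC1601 against 33.8 to 136 in the rest, and *ETV4* had 2104 against 83.7 to 1332. *SPRY4*, at 675, was close to TC1936 with 610, and *CCND1*, at 3524, was followed by 2538 in TC1020. *ETV5* was the one gene in which another MTC was higher, with 1997 in TC1020 and 1128 in TC1601. TC1601 also differed from the other MTC in its follicular cell markers, with a summed level of 17.78 against 8.61 to 12.89 (*TG* alone had 248274 counts), and in its fibroblast markers, with 18.31 against 13.8 to 16.17. Its C cell markers summed to 18.14, inside the range of the other MTC. The part of these markers in the TC1601 values was not tested.

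Relatives and partners of the score genes differed between the tumor types in both directions. Of 26 relatives tested, 6 were higher in FTC and 5 higher in MTC, beside 8.18% and 13.7% of all genes tested, the shares against which the other list counts for the tumor types are to be read. *DUSP14* (log2 fold change 1.64), *ETV6* (0.94), *EPHA1* (1.52) and *EPHB4* (1.73) were among those higher in FTC, and *ETS2* (-2.77), *EPHA5* (-6.20), *DUSP8* (-2.73) and *EPHA7* (-5.47) among those higher in MTC. Eph receptors therefore stood on both sides, with *EPHA1*, *EPHA2*, *EPHA4* and *EPHB4* higher in FTC and *EPHA5*, *EPHA7* and *EPHA8* higher in MTC. Of the 5 ephrin ligands tested, *EFNA1* (1.49) and *EFNB1* (1.50) were higher in FTC, and *EFNA5* (-3.12) and *EFNB3* (-1.75) higher in MTC. Among 25 further ERK response genes none was higher in FTC by edgeR (1 by DESeq2), and 5 were higher in MTC: *MYC*, *DUSP5*, *VGF*, *MAFF* and *ETV1*, with log2 fold changes of -2.70, -2.77, -4.94, -2.30 and -2.43. Without TC1601 *MAFF* no longer passed in edgeR, the other 4 still did, and 1 gene (*IER3*) passed as higher in FTC. From the cascade, *MAP3K8* (1.16), *KSR1* (1.79) and *PEBP1* (1.07) were higher in FTC and *KSR2* (-2.71) in MTC. Of the genes altered in carriers that are named here, the receptors *FGFR2* (5.57), *ERBB2* (4.11) and *TNFRSF1A* (1.43) were higher in FTC. Beside these, 3 of 6 fibroblast and 3 of 6 leukocyte markers were higher in MTC, with summed levels of 13.8 to 18.31 and 11.14 to 12.83 against 12.37 to 16.53 and 10.23 to 12.47 in FTC, and their part was not tested. No fibroblast marker passed without TC1601 (edgeR, with 0 of 6 at an unadjusted p below 0.05).

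How far the score genes varied with each other was described over the 25 FTC. Of the 45 pairs, 41 had a positive Spearman's rho, with a median of 0.38. The highest values joined *DUSP6* with *ETV5* (0.79), *SPRY2* (0.76) and *ETV4* (0.75), and the lowest was that of *CCND1* and *EPHA4* (-0.17). *DUSP4* was apart from this group, at 0.07 with *DUSP6*, 0.01 with *ETV4* and -0.05 with *ETV5*. Its highest value among the score genes was 0.53, with *SPRY4*. Without TC1088, 43 of 45 pairs were positive and the median was 0.44. All tumors share the size factor scale and the groups above, so these values are a description. The share of positive pairs among other genes was not computed, so 41 of 45 is not read as particular to the score genes.

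The 4 pairs of close relatives were tested by permutation, with p-values adjusted over the 4. *ETV4* and *ETV5* varied together (Pearson r = 0.72, p = 2e-05, adjusted 8e-05, and Spearman's rho = 0.61, p = 0.00143, adjusted 0.00572), and r was 0.57 without TC1088 and TC1953, the tumors farthest from the median of *ETV4*. The other 3 pairs did not pass over 25 FTC, and the Sprouty and Eph pairs passed by rho without TC1088 (rho = 0.50, permutation p adjusted over the 4 = 0.0286, and rho = 0.44, adjusted 0.0441). *SPRY2* and *SPRY4* had r = 0.26 (permutation p = 0.219, adjusted 0.438) and rho = 0.36 (p = 0.0752, adjusted 0.15), and r was 0.51 without TC1088 and TC627. *DUSP4* and *DUSP6* had r = -0.06 (permutation p = 0.783, adjusted 0.783) and rho = 0.07 (p = 0.736, adjusted 0.736), and r was -0.11 without TC2110 and TC2402. *EPHA2* and *EPHA4* had r = 0.18 (permutation p = 0.403, adjusted 0.537) and rho = 0.28 (p = 0.172, adjusted 0.229), and r was 0.08 without TC538 and TC640. Within the 16 FTC with no variant named, *ETV4* and *ETV5* lost the call. There they had rho = 0.46 (permutation p = 0.0749, adjusted 0.255) and r = 0.59 (permutation p = 0.0166, adjusted 0.0664). In the same tumors, rho was 0.38, -0.08 and 0.34 for the Sprouty, DUSP and Eph pairs.

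**Figure D5:**
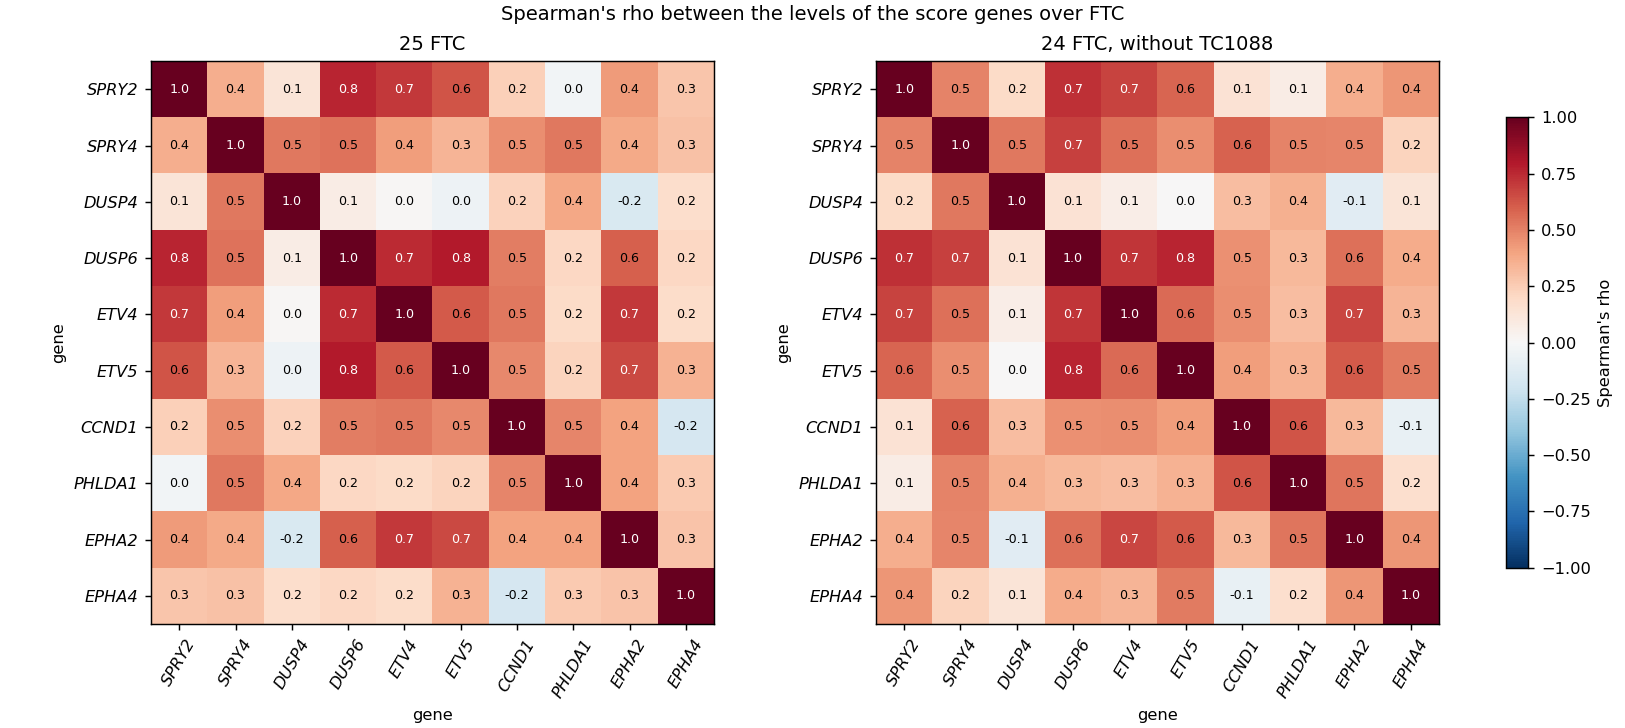
Spearman's rho between the levels of each pair of score genes over 25 FTC (left) and over 24 FTC without TC1088 (right), with the value in each cell, red for positive and blue for negative. *SPRY2*, *DUSP6*, *ETV4* and *ETV5* form a block of high values in both panels, and *DUSP4* is near 0 with that block.

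Among 10117 named genes whose median normalized count reached 100, the gene most like each score gene over the 25 FTC by Spearman's rho was sought. No gene outside the score was closer to *SPRY2*, to *DUSP6* or to *ETV5* than the nearest score gene, which was *DUSP6* for *SPRY2* and *ETV5* for *DUSP6*, and the reverse. For *ETV4* and *EPHA2*, 5 and 4 genes were closer than the nearest score gene. For *PHLDA1*, *EPHA4*, *CCND1*, *SPRY4* and *DUSP4* between 174 and 946 genes were closer. The genes with the highest rho were *GRID1* for *SPRY2* (0.75), *PARVB* for *SPRY4* (0.85), *FAM168A* for *DUSP4* (0.79), *COL13A1* for *DUSP6* (0.72) and *TMEM59L* for *ETV4* (0.81). For *ETV5* and *EPHA2* it was *ELFN2* (0.73 and 0.84), for *CCND1* *HRAS* (0.81), for *PHLDA1* *PEDS1* (0.87) and for *EPHA4* *ARMCX1* (0.78).

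The score genes also differed in how much they varied among the 16 FTC with no variant named. *DUSP6* had an SD of 0.66 in level, at the 28.1 percentile of all genes tested, and *SPRY4* one of 0.74, at the 37.3 percentile. *ETV4* had the widest spread, with an SD of 1.87 at the 93.3 percentile, and *EPHA4* and *PHLDA1* followed with 1.40 each, at the 84.1 and 84.0 percentiles. The 2 genes with the smallest exact permutation p between carriers and others, *SPRY4* and *DUSP6*, were also the 2 with the least spread among the tumors with no variant named. The same levels enter that test, where less spread lowers p, so this match is partly built in.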

How the data were processed

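The authors made total RNA libraries from 30 canine thyroid carcinomas, aligned read pairs to the CanFam3.1 genome using STAR, counted reads per Ensembl gene and deposited one table of raw counts (30424 genes, 15780 with a symbol, 0 columns of no tumor). The strand setting of the counting is not given in the sources used here, so reads of overlapping or antisense genes cannot be told apart. Counts were 12288945 to 45148677 per tumor (median 25569678), and 0 pairs of tumors had identical counts. Each tumor came from a separate dog. No batch is named in the labels.

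The sample labels name only the library. Carriers and tumor types were therefore assigned by library name from the study: carriers as listed above, tumor type by calcitonin, which for TC1020 rested on its transcript. The altered gene is not reported here for every carrier. A tumor with no variant named may still hold one that was not called. The score genes, gene lists and comparisons were chosen with earlier results of these data known.

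A gene was tested where 5 or more of the tumors compared had 10 or more counts. The test was the two-sided quasi-likelihood test of edgeR 4.0.16 (R 4.3.3) after TMM scaling, with Benjamini-Hochberg adjustment over all genes tested, and a gene was called at an adjusted p below 0.05. All 10 score genes passed this filter in both comparisons. The study's limits, which also ask for a log2 fold change beyond 2, were a second rule. SE is the log2 fold change divided by the square root of its F statistic. Levels used median-of-ratios size factors, taken from the 15611 genes detected in every tumor, and a pseudocount of 1. Their means were compared by two-sided exact permutation over all splits (2042975 for 9 against 16 FTC), unadjusted. Correlations used 100000 permutations. The edgeR code was tested on simulated counts. Alternatives were DESeq2 1.42.0 and its size factors, other count filters, a pseudocount of 8, TMM-scaled levels, single tumors left out, all 30 tumors with type as a covariate, and the comparison without the carriers of *TNFRSF1A* or calcium channel variants. All 10 score genes were named in both comparisons. Of each list, the genes that passed were named, up to 4 in each direction by adjusted p. *ETV1* and *EPHA8*, which passed beyond those 4, and *MCL1*, *MAP3K8* (in the carrier comparison) and *IER3* were also chosen after their values were seen. Other further names are said in place to be chosen so. The floor of 3 counts is what a count of 0 still allows, for counting error alone. Python 3.11.15, numpy 2.4.6, scipy 1.17.1, pandas 2.3.3 and matplotlib 3.10.9 were used. Sequences and gene lengths of this build were not used here, so levels are not compared between genes.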

Additional observations from a re-analysis of the deposited data

Results flagged for a closer look

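A tumor was marked where its gap to the nearest of its group exceeded Dixon's limit. Of 30 groups tested (10 genes in 3 groups), 3 were marked, where chance alone marks about 1 in 20. *SPRY4* in TC1088, at a level of 6.83, lay below the other 8 FTC carriers, which were at 8.48 to 9.58. *ETV5* in TC1088, at 12.67, lay above the other 8 FTC carriers, the highest of which was at 10.22. *DUSP6* in TC1601, at 12.7, lay above the other 4 MTC, which were at 9.09 to 10.05. The cause of these placings was not tested.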

How the results depend on the processing

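The number of genes higher in FTC carriers (38) was 85 with DESeq2 (15 of the 38 among them), 147 with no count filter, 12 with the stricter filter, 12 without TC1088 (all 12 among the 38), 117 with all 30 tumors and 74 without the carriers of *TNFRSF1A* or calcium channel variants (the restricted carriers), and 12 to 58 when 1 carrier at a time was left out. The number lower in carriers (0) was 56 with DESeq2, 6 with no count filter, 6 with all 30 tumors, 1 with the restricted carriers and 0 to 2 with 1 carrier left out. The cause was not tested. *DUSP6* was lost without TC1088, TC1241 or TC538, as given above. *PHLDA1* turned to -0.090 with the restricted carriers. *EPHA4* was at 0.25 with all 30 tumors and ran from -0.33 to 0.13 with 1 carrier left out, and its level difference was 0.28 without TC1088.

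Between the tumor types, 1524 genes were higher in FTC and 2557 in MTC at an adjusted p below 0.05. By that rule, 3972 were higher in MTC with no count filter and 1564 with the stricter filter. With the added limit on the log2 fold change the counts were 812 in FTC and 1394 in MTC, and for MTC 2967 with no count filter and 569 with the stricter filter. No paired analysis was possible because each tumor came from a separate dog. With TC1088, log2 fold changes were 0.55 for *SPRY2* (0.070 as a level difference), 0.33 for *ETV4* and 0.023 for *ETV5*. With tumors with no variant named only, they were 0.40 for *SPRY2*, -0.026 for *SPRY4*, 0.82 for *DUSP4* and 0.13 for *ETV4*. With 1 MTC left out they ran from -0.36 to 0.73 for *SPRY2*, -0.19 to 0.61 for *SPRY4*, -1.23 to 1.27 for *DUSP4*, -1.03 to 0.48 for *DUSP6*, -0.45 to 0.48 for *ETV4* and -0.67 to 0.087 for *ETV5*. None of these passed the test. Without TC1088, Spearman's rho was 0.50 for *SPRY2* and *SPRY4* (permutation p = 0.0143, adjusted 0.0286) and 0.44 for *EPHA2* and *EPHA4* (p = 0.0331, adjusted 0.0441), so that both pairs gained the call by rho, while by Pearson's r the Sprouty pair gained it (adjusted 0.0229) and the Eph pair did not (adjusted 0.0629). In FTC with no variant named, *ETV4* and *ETV5* lost the call, with rho = 0.46 (permutation p adjusted 0.255). By Pearson's r it was lost as well (permutation p adjusted 0.0664). The Spearman correlation of *DUSP4* and *DUSP6* in those tumors was -0.082. The remaining alternatives kept direction and side of the threshold for the score genes, other than those named here and beside the results.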
